A study of Macaca mulatta with 12 samples.

Results

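Gene expression was compared between ORMES-9, a homozygous parthenogenetic embryonic stem (ES) cell line of the rhesus monkey, and ORMES-22, a biparental ES cell line derived after in vitro fertilisation (IVF). The comparison used 6 of the 12 Affymetrix rhesus arrays of the series, 3 for each line (replicates A, B and C, which the series calls biological replicates). The other 6 arrays were 3 of rPESC-2, a heterozygous parthenogenetic ES cell line, and 3 of adult skin fibroblasts, and they entered only through the shared estimate of spread and as reference levels. All the ES cells were undifferentiated colonies grown on mouse feeder cells, and each line is a single derivation, so a difference between ORMES-9 and ORMES-22 is a difference between 2 lines and not between 2 classes of embryo. ORMES-22 was harvested at passages 18, 21 and 19 (A, B and C) and ORMES-9 at passages 13, 14 and 16, so the passage number was lower for every ORMES-9 sample, and passage and line cannot be told apart. Some label fields call the ORMES-9 samples homozygous parthenogenetic and others describe the source as an IVF blastocyst. SNRPN, an imprinted gene transcribed from the paternal copy, measured 5.80, 5.89 and 5.88 in ORMES-9 and 12.98, 12.85 and 12.55 in ORMES-22 (log2 values). In rPESC-2 its mean was 5.79, so ORMES-9 lay with the other parthenogenetic line for this gene.

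A parthenogenetic embryo develops from an egg without sperm, so both chromosome sets are maternal and genes read only from the paternal copy are silent. In a homozygous parthenogenetic line the chromosome sets are in addition largely identical copies of one another. Primate ES cells grow as flat epithelial colonies held together by cadherin junctions, tight junctions and desmosomes, and they lose these and take on mesenchymal genes, or turn on endoderm genes downstream of Nodal and WNT signals, as they leave the undifferentiated state. Genes outside the imprinted set are described here by these and other families, and the numbers of called genes are given with and without replicate A of ORMES-22.

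Values are the deposited log2 RMA values of 52766 probe sets, and 12993 named genes were each represented by 1 probe set. A gene was called where limma's adjusted p was under 0.05 and the difference at least 2-fold, and "rose" and "fell" refer to called genes, ORMES-9 relative to ORMES-22. The signal of the 42 poly-A control probe sets was taken as background, with a 90th percentile of 4.26. The 12 array medians lay between 5.01 and 5.10. ORMES-22 A stood apart from its own group: its correlation over all probe sets was 0.9855 with B and 0.9844 with C, against 0.9928 between B and C and at least 0.9948 among the ORMES-9 arrays. Its correlations with the ORMES-9 arrays were 0.9839 to 0.9849, hardly below those with its own group. In the lines compared the hybridisation control signal followed the replicate letter, at 10.80, 10.53 and 10.12 in ORMES-22 and 10.82, 10.49 and 10.17 in ORMES-9. The other groups did not show that order, at 10.475, 10.655 and 10.499 in rPESC-2 and 10.206, 10.285 and 10.196 in fibroblasts. The pluripotency genes were on in both lines: POU5F1 measured 12.62 to 13.07 in ORMES-9 and 13.02 to 13.24 in ORMES-22, and SOX2 11.79 to 11.90 and 11.66 to 12.17. The chosen NANOG probe set does not separate ES cells from fibroblasts on these arrays (mean 8.25 in ORMES-9, 8.41 in ORMES-22 and 9.53 in fibroblasts).

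Of all probe sets, 1.57% were called, 0.946% higher and 0.629% lower in ORMES-9, and 2.43% without ORMES-22 A. At the level of named genes 298 were called, 2.29% of those measured. Of these 179 rose (1.38%) and 119 fell (0.916%). Without ORMES-22 A 480 genes were called (3.69%), 288 higher (2.22%) and 192 lower (1.48%). The 2 sets shared 271 genes; 27 were called only with A, 209 only without it, and none changed sign. The median difference over all genes was -0.006. For 101 of the 179 genes that rose (56.4%) the mean of rPESC-2 lay nearer to ORMES-9 than to ORMES-22, and for 61 of the 119 that fell (51.3%). For the remaining called genes rPESC-2 lay nearer to ORMES-22. No such share was taken over all genes.

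**Figure D1:**
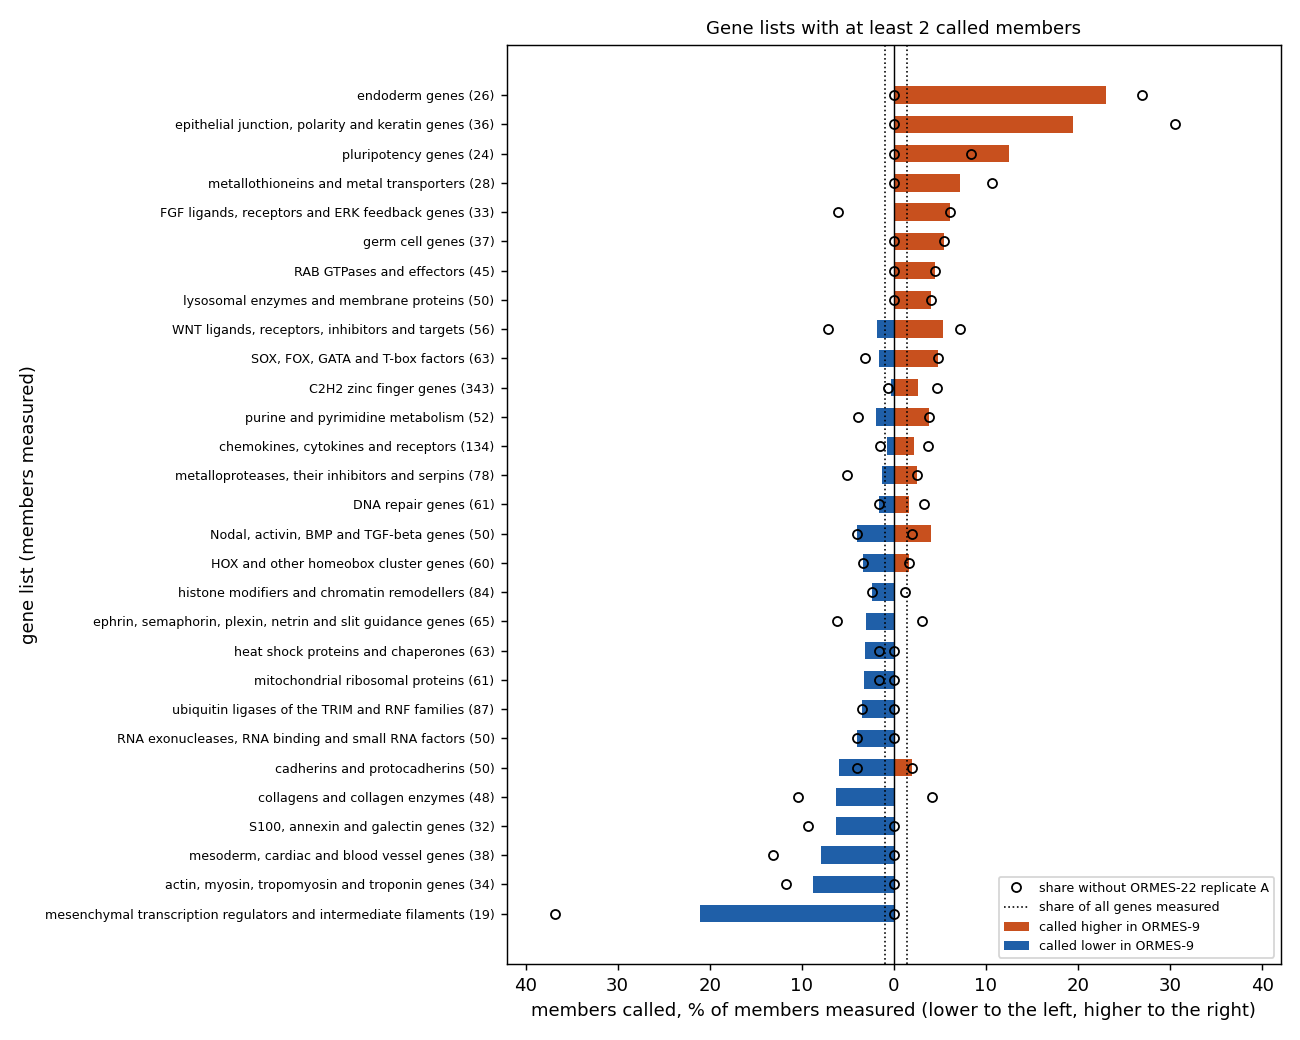
Share of measured members called higher (orange, to the right) and lower (blue, to the left) in ORMES-9 for the gene lists with at least 2 called members, imprinted lists omitted. Open circles give the shares without ORMES-22 A and dotted lines the shares over all genes, 1.38% and 0.916%; endoderm and epithelial lists reach furthest right, mesenchymal regulators furthest left.

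Epithelial genes were higher in ORMES-9. Of 36 measured genes for junctions, polarity, keratins and their regulators, 7 rose and none fell, against 1.38% and 0.916% of all genes. The median difference of the list was 0.56, and 35 of the 36 differences were positive (33 without ORMES-22 A). In 19 of the 36 genes (52.8%) every ORMES-9 array lay above every ORMES-22 array, which held for 13% of all genes. Without ORMES-22 A 11 members were called higher and none lower, the 7 among them, and the median was 0.61.

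The largest of these was RAB25, a small GTPase of the recycling endosome in epithelia. RAB25 measured 6.60, 5.89 and 5.24 in ORMES-22 and 9.38, 9.71 and 9.16 in ORMES-9, with no overlap, an 11.4-fold rise (log2 difference 3.51, SE 0.27, adjusted p = 1e-05; 3.85 without A). The order of the ORMES-22 arrays, with A nearest to ORMES-9, recurred in several epithelial genes. OVOL2, a zinc finger repressor that holds mesenchymal genes down in epithelia, measured 7.54, 6.85 and 6.60 in ORMES-22 and 8.92, 9.0 and 8.76 in ORMES-9 (difference 1.89, SE 0.26, adjusted p = 0.000882; 2.16 without A). The keratin KRT19 measured 10.41, 9.0 and 9.19 against 11.10, 10.85 and 11.08 (difference 1.48, SE 0.28, adjusted p = 0.00714; 1.92 without A), and its other 2 probe sets gave 1.52 and 1.58, both called. KRT19 was not called with only the 6 arrays compared (adjusted p = 0.113). PRSS8, the membrane protease prostasin, rose by 1.5 (1.79 without A). Junction and polarity components were also among the 7. DSG2, the desmosomal cadherin, measured 8.40, 8.56 and 8.48 in ORMES-22 and 9.66, 9.82 and 9.79 in ORMES-9 (difference 1.27, SE 0.12, adjusted p = 4.71e-05; 1.23 without A). CRB3, of the apical polarity complex, rose by 1.23 and F11R, a tight junction adhesion molecule, by 1.13 (1.3 and 1.36 without A).

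A further 4 epithelial genes crossed the threshold only when ORMES-22 A was omitted. EPCAM, the surface adhesion molecule used to sort ES cells, measured 10.79 on ORMES-22 A but 9.18 and 9.37 on B and C, with 10.52, 10.82 and 10.65 in ORMES-9; its difference was 0.88 (adjusted p = 0.142) with A and 1.38 (1.13e-05) without. CLDN10 had the same form, at 7.62, 6.39 and 5.92 against 7.61, 7.88 and 7.70, with a difference of 1.09 (adjusted p = 0.0712) with A and 1.58 (5.28e-05) without. CDH3, the P-cadherin gene, and the claudin CLDN1 complete the 4, at 0.90 and 0.94 with A and 1.04 and 1.03 without. The E-cadherin gene CDH1 was not called (difference 0.19), and its probe set measured 4.61 to 5.24 over the 6 arrays, close to background.

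Mesenchymal regulators went the other way, with 21% called lower, against 0.916% of all genes. Of 19 measured, none rose and 4 fell, and the median difference was -0.26; without ORMES-22 A none rose, 7 fell, the 4 among them, and the median was -0.37. The largest fall was of TWIST1, a helix-loop-helix factor of mesenchyme. It measured 8.28, 8.49 and 8.64 in ORMES-22 and 5.58, 5.52 and 6.29 in ORMES-9, a 6.37-fold fall (difference -2.67, SE 0.24, adjusted p = 4.02e-05; -2.76 without A). CDH11, the mesenchymal cadherin, measured 9.73, 10.47 and 10.52 against 7.42, 7.79 and 8.14 (difference -2.46, SE 0.37, adjusted p = 0.00162; -2.71 without A), and its other 2 probe sets were also called lower. The groups did not overlap in either gene. ZEB1, a repressor of E-cadherin, fell by 1.09 on the log2 scale (1.14 without A), but its difference was under 2-fold with ORMES-22 C or ORMES-9 B left out (-0.94 and -0.91). FOXF2 measured 4.69 on ORMES-22 A and 6.80 and 7.29 on B and C, against 4.38, 4.34 and 4.46; its call (difference -1.87, adjusted p = 0.0378) was lost on leaving out any one of the other 5 arrays and its difference was -2.65 without A. ZEB2, VIM and MSX2 were called only without A, at -2.13, -1.13 and -1.48.

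**Figure D2:**
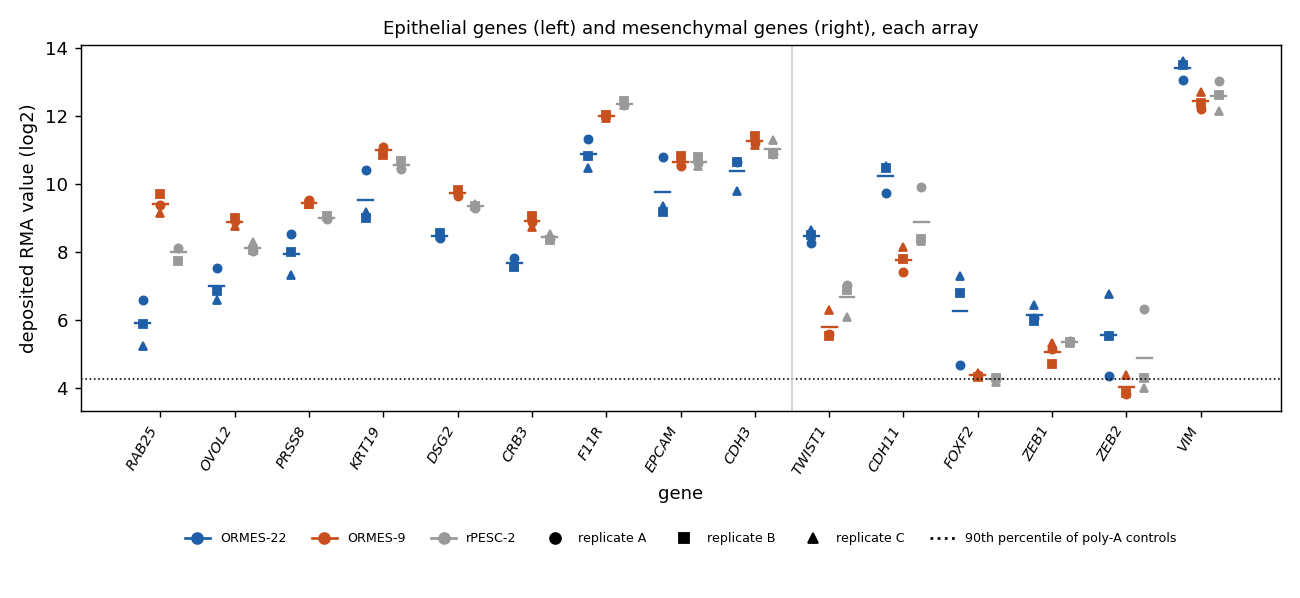
Deposited log2 value on each array for epithelial genes (left of the line) and mesenchymal genes (right); marker shape is the replicate, bars are group means, the dotted line is the 90th percentile of the poly-A controls. ORMES-9 lies above ORMES-22 for RAB25 to F11R and below it for TWIST1 and CDH11, while ORMES-22 A (blue circle) sits with ORMES-9 for EPCAM and FOXF2; rPESC-2 (grey) is shown for reference.

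The rPESC-2 means were 7.99 for RAB25, 8.13 for OVOL2, 6.67 for TWIST1 and 8.88 for CDH11, each between those of the other lines, and 4.26 for FOXF2, below both. The mean log2 value of the 36 epithelial genes was 8.22 to 8.30 on the ORMES-9 arrays, 7.51 to 7.68 on the ORMES-22 arrays and 7.99 to 8.03 on the rPESC-2 arrays. Fibroblast and matrix markers, which would mark fibroblast-like cells in a culture, were read beside them. None of 25 was called with all arrays and 2 fell without A (VIM and LOX, the lysyl oxidase gene), with medians of -0.18 and -0.21. Their mean log2 value was 7.83 to 8.14 in ORMES-22, 7.55 to 7.72 in ORMES-9 and 10.51 to 10.55 in fibroblasts, and their summed linear value 34641 to 44760, 30223 to 34133 and 111832 to 114631. Both measures of the list were lower on every ORMES-9 array than on any ORMES-22 array, and its part in the difference of the mesenchymal genes was not tested; within it LUM, a defining fibroblast marker, was near background on the ES arrays (3.56 to 3.64 in ORMES-22, 3.55 to 4.61 in ORMES-9, mean 11.49 in fibroblasts) and COL1A1 was high in both (mean 10.40 in ORMES-9 and 11.30 in ORMES-22). In bulk arrays, fewer cells of a type and less RNA per cell cannot be told apart.

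Called genes of the contractile apparatus and of vessels all fell. Of 34 measured actin, myosin, tropomyosin and troponin genes, 3 fell and none rose (4 and none without A), with a median of -0.13. The share that fell was 8.82%, against 0.916% of all genes. ACTC1, cardiac actin, measured 12.46, 12.68 and 12.70 in ORMES-22 and 10.02, 10.30 and 10.79 in ORMES-9 (difference -2.24, SE 0.28, adjusted p = 0.000429; -2.32 without A). CNN1, the smooth muscle protein calponin, fell by 1.5 (1.64 without A) and MYL7, an atrial myosin light chain, by 1.04 (1.27), the last under 2-fold with ORMES-22 B or C or ORMES-9 A or B left out (-0.89 to -0.98). The endothelial receptor TEK, which binds angiopoietins, measured 9.99, 9.94 and 10.51 against 7.36, 7.82 and 8.38 (difference -2.29, SE 0.21, adjusted p = 4.92e-05; -2.37 without A). A second, dimmer TEK probe set gave -0.19 and was not called. Other endothelial genes did not follow TEK: KDR, PECAM1 and CDH5 had low values in both lines (means 4.18 to 5.45), differed by at most 0.11 and were not called. With ACTC1 and MYL7, TEK made the 3 of 38 mesoderm, cardiac and vessel genes that fell, and none rose. The share that fell was 7.9%, against 0.916% of all genes. Without A 5 were called lower, LMO2 and NPPB being added, and none higher. In rPESC-2 ACTC1 averaged 10.13, the level of ORMES-9, and TEK 10.06, the level of ORMES-22.

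The largest single fall outside the imprinted genes was that of CAVIN2, a coat protein of caveolae. It measured 10.19, 9.40 and 9.83 in ORMES-22 and 4.67, 4.91 and 4.42 in ORMES-9, a 35.2-fold fall (difference -5.14, SE 0.21, adjusted p = 4.09e-08; -4.95 without A), and a second probe set gave -3.06, also called. It was the only one of 9 measured caveola coat genes to be called, with or without A; CAV1 measured 11.66, 12.07 and 12.55 against 10.73, 11.71 and 11.73 (difference -0.71, adjusted p = 0.2). The rPESC-2 mean of CAVIN2 was 9.33, close to ORMES-22. In the list of Hippo kinases, YAP cofactors and YAP target genes 1 of 32 fell (3.1%, against 0.916% of all genes). It was the ankyrin repeat gene ANKRD1, at 7.47, 9.16 and 10.05 against 4.94, 5.20 and 5.61 (difference -3.64, SE 0.58, adjusted p = 0.00243, and -4.35 without A). The common YAP targets CCN1 and CCN2 differed by -0.37 and -0.45 and were not called in either set; MYOF and DLC1 were called lower only without A.

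Matrix genes gave mixed results. Of 48 collagens and collagen enzymes, 3 fell and none rose: PCOLCE, the enhancer of procollagen cleavage, by 1.15, COL8A2 by 1.10 and COL12A1 by 1.15. The share that fell was 6.25%, against 0.916% of all genes. All ORMES-9 arrays lay below all ORMES-22 arrays in 13 (27.1%) and above them in 6 (12.5%), against 11.9% and 13% of all genes. The call of COL8A2 was lost without ORMES-22 B or ORMES-9 A, and that of COL12A1, with an adjusted p of 0.0497, without any of 4 single arrays other than ORMES-22 A. Without A 5 fell, those 3 among them, and 2 rose, P4HA1 and PLOD2, enzymes that hydroxylate collagen. Among 78 metalloproteases, inhibitors and serpins 2 rose and 1 fell (2 and 4 without A), or 2.56% and 1.28%, against 1.38% and 0.916% of all genes. ADAMTS19, a secreted protease with thrombospondin repeats, rose by 2.09 (2.43 without A). It measured 6.11, 5.02 and 5.12 in ORMES-22 and 7.52, 7.52 and 7.47 in ORMES-9, and a second probe set gave 2.08, also called. MMP12, the macrophage elastase, fell by 2.42, from 6.41, 5.51 and 8.07 to 3.85, 4.29 and 4.59, a call that was lost with ORMES-9 A or B left out; the difference was -2.55 without ORMES-22 A and -1.72 without C. The third called member was MMP25, higher by 1.02, while a second probe set of it gave -0.22. Of 29 integrins and laminins only the laminin chain LAMB1 was called, higher by 1.06 (1.26 without A; second probe set 1.02, also called), but not called without ORMES-22 B or C or ORMES-9 B.

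Some endoderm genes rose in ORMES-9 (23.1% of the list, against 1.38% of all genes) and others were not called. Of 26 measured endoderm genes 6 rose and none fell (7 and none without A, the 6 and HESX1); the median difference was 0.41, and 0.18 without A. Of the called members, SOX17, FOXA2, GATA6 and GSC differed by 2.37, 2.33, 2.14 and 2.14 with A. Without A they differed by 2.27, 2.23, 2.04 and 2.06. SOX17 measured 5.00, 4.62 and 5.93 in ORMES-22 and 7.55, 6.85 and 8.25 in ORMES-9; FOXA2 measured 5.14, 5.42 and 5.42 against 7.90, 7.39 and 7.67. The lines did not overlap in either gene, though a second, dim SOX17 probe set gave only 0.73 and was not called. KIT, a receptor of early endoderm and germ cells, rose by 1.51 (1.86 without A). GATA6, CXCR4 and KIT lost their calls when limma was given only the 6 arrays compared (adjusted p = 0.057, 0.076 and 0.104). That loss was not particular to endoderm genes. Of 135 called genes followed through the alternatives, 45 lost their call there, GDF3, KCNS3 and CTSZ among them. The secreted products of later endoderm were not called: AFP differed by 0.39, APOA1 by 0.26 and APOB by -0.21. HHEX, high in both lines, differed by 0.11. The mean log2 value of the list was 7.00 to 7.29 on the ORMES-9 arrays and 6.39 to 6.59 on the ORMES-22 arrays, and 7.18 to 7.37 on the rPESC-2 arrays.

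Among 50 Nodal, activin, BMP and TGF-beta genes 2 rose and 2 fell (1 and 2 without A), or 4% each way, against 1.38% and 0.916% of all genes. The ligand GDF3 measured 7.28, 7.37 and 6.48 in ORMES-22 and 8.76, 7.88 and 8.36 in ORMES-9 (difference 1.29, SE 0.24, adjusted p = 0.00641; 1.41 without A). NODAL measured 7.51, 9.10 and 7.48 against 9.64, 9.56 and 9.13; its difference of 1.42 (adjusted p = 0.0305) was called with all arrays and not without ORMES-22 A, where it was 1.16, nor with ORMES-22 C, ORMES-9 A or ORMES-9 B left out. ORMES-22 B was thus close to the ORMES-9 arrays for NODAL, and a second, dim probe set gave 0.37. The same array was the highest of its line for PRDM14, a pluripotency regulator, at 9.77 beside 8.41 and 8.29; the difference was 1.56, 1.36 without A, and it was not called without ORMES-9 A or B. The Nodal inhibitor CER1 was not called (difference 1.01, adjusted p = 0.0754). ID4, an antagonist of helix-loop-helix factors, fell by 1.02 (1.33 without A), a call lost with any of the 4 single arrays ORMES-22 B and C and ORMES-9 A and B left out. TMEFF2, a membrane protein with follistatin-like domains, measured 9.30, 6.52 and 7.41 in ORMES-22 and 3.91, 3.96 and 4.34 in ORMES-9, the level of background (difference -3.68, SE 0.49, adjusted p = 0.0008; -2.90 without A and -4.29 without B).

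The WNT list held 3 rises and 1 fall among 56 genes (4 and 4 without A), or 5.36% and 1.79%, against 1.38% and 0.916% of all genes. The genes that rose act at the cell surface as inhibitors or receptors. DKK1, which blocks the LRP co-receptors, measured 5.02, 4.91 and 5.54 in ORMES-22 and 7.55, 6.91 and 7.36 in ORMES-9 (difference 2.12, SE 0.18, adjusted p = 2.49e-05; 2.05 without A). LGR5, a receptor for R-spondins, rose by 1.92 with a wide spread in ORMES-9 (6.39, 5.41 and 7.26, against 4.45, 4.18 and 4.67), and a second probe set gave 0.20. LGR5 was not called with only the 6 arrays compared (adjusted p = 0.098). WIF1, which binds WNT ligands, rose by 1.51 (1.48 without A). The ligand WNT5A fell by 1.06 (1.40 without A), a call lost with ORMES-22 B or C or ORMES-9 A or C left out. DKK1, LGR5 and WNT5A were all high in fibroblasts, at means of 11.75, 12.43 and 11.49. AXIN2 and SP5, common targets of WNT signalling, differed by -0.20 and -0.32 and were not called. Of 33 FGF genes the ligands FGF17 and FGF9 rose, by 1.59 and 1.52 (1.47 and 1.28 without A). The share that rose was 6.06%, against 1.38% of all genes. FGF17 was not called with only the 6 arrays compared (adjusted p = 0.055). No FGF receptor was called. FGF18 and DUSP5, a phosphatase of the ERK pathway, were lower only without A (-1.02 each). None of 30 Notch genes was called by limma with all arrays, and without A only DTX4 (-1.19).

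**Figure D3:**
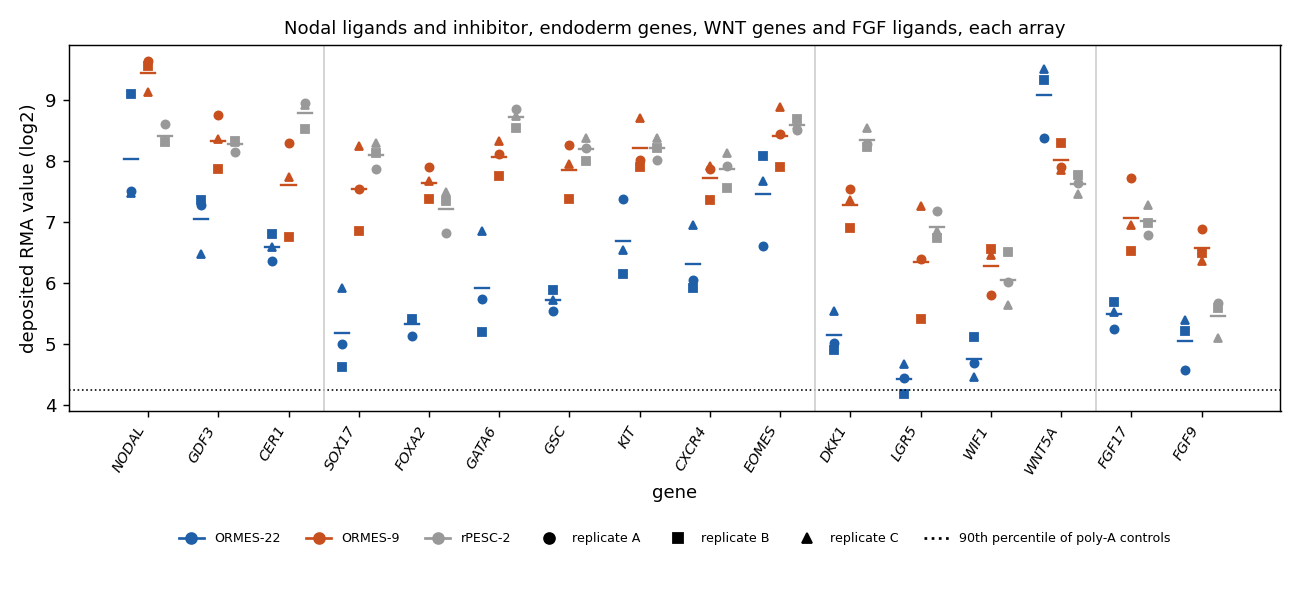
Deposited log2 value on each array for Nodal pathway ligands and inhibitor, endoderm genes, WNT genes and FGF ligands, separated by grey lines; bars are group means and marker shapes replicates. For SOX17 to CXCR4, DKK1, LGR5, WIF1, FGF17 and FGF9 each ORMES-9 array is above each ORMES-22 array, while for NODAL the ORMES-22 B square lies near ORMES-9, and for EOMES the lines overlap.

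Other lineage lists showed single members. The shares that fell were 3.03% of neural, 4.35% of trophoblast and 3.33% of homeobox genes, against 0.916% of all genes. Of the homeobox genes 1.67% rose, against 1.38% of all genes. Of 33 neural genes the retinoic acid binding protein CRABP1 fell, from 10.57, 12.50 and 11.21 to 9.57, 9.78 and 9.40 (difference -1.85, SE 0.38, adjusted p = 0.013; -2.28 without A). CRABP1 was not called with only the 6 arrays compared (adjusted p = 0.12). PAX6 and SOX3 were called lower only without A, PAX6 at 4.56 on A but 5.89 and 6.68 on B and C, against 4.39 to 4.83 in ORMES-9. In the trophoblast list 1 of 23 fell, the class I gene MAMU-AG, and without A a second, MSX2; CDX2, ELF5 and GCM1, which drive trophoblast, were low in both lines (means 3.80 to 5.11). For the 60 homeobox genes 1 rose (GSC) and 2 fell (1 and 2 without A, where IRX4 took the place of IRX1): NKX3-2 (-1.57; -1.91 without A) and IRX1 (-1.19), the latter not called without ORMES-22 A or ORMES-9 A or B; 53 of the 60 differences were negative (54 without A), and in 18 (30%) all ORMES-9 arrays lay below all ORMES-22 arrays, against 11.9% of all genes, with a median difference of -0.13.

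Chemokine and immune genes changed singly, and a ligand and its receptor moved in opposite directions. CXCR4 measured 6.06, 5.92 and 6.95 in ORMES-22 and 7.88, 7.36 and 7.92 in ORMES-9 (difference 1.41, SE 0.25, adjusted p = 0.00548; 1.29 without A). Its ligand CXCL12 measured 7.75, 7.85 and 7.98 against 5.92, 5.46 and 5.57 (difference -2.21, SE 0.14, adjusted p = 2.79e-06; -2.27 without A), although 2 dimmer probe sets of CXCL12 gave only -0.26 and -0.24. Of the chemokines, cytokines and their receptors, 3 rose and 1 fell (5 and 2 without A). With all arrays this was 2.24% higher and 0.746% lower, against 1.38% and 0.916% of all genes. Beside CXCR4, the rises were those of the cytokine IL10 (1.87; 2.05 without A) and the decoy receptor IL1R2 (1.5; 2.02 without A). Probe sets of the same genes disagreed here: a second one gave 0.07 for IL10, and 2 above background gave -0.11 and -0.03 for IL1R2. The call of IL1R2 was lost with any of ORMES-22 B and C and ORMES-9 A and B left out. NFKBIZ, an inducible regulator of NF-kappa-B targets, rose by 2.10 (2.01 without A), with a second, dim probe set at 0.31.

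Of 26 antigen presentation genes only MAMU-AG, the rhesus non-classical class I gene of the placenta, was called, with and without A. It measured 9.79, 10.04 and 10.23 in ORMES-22 and 7.71, 7.61 and 7.42 in ORMES-9 (difference -2.44, SE 0.13, adjusted p = 5.82e-07; -2.55 without A). B2M, the class I light chain, differed by -0.30 and MAMU-E by -0.88, both under 2-fold, and MAMU-A and MAMU-B by -0.40 and -0.09. The class I genes are near-identical copies of one another, so the probe sets may share signal, and a second, dimmer probe set of MAMU-AG gave -0.67 and was not called. In rPESC-2 its mean was 9.95. Of 45 interferon response genes only TRIM22 was called, lower by 1.65 with and without A (1 more was called higher without A), but a second, dim probe set of it gave 0.05. With TRIM4 (-1.65, and -1.51 without A) and RNF175 (-1.62 and -1.39), TRIM22 made 3 of 87 TRIM and RNF ubiquitin ligases, the same 3 without A. The share that fell was 3.45%, against 0.916% of all genes.

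The largest rises were of a pair of enzymes of deoxynucleotide metabolism. DCTD, which deaminates dCMP to dUMP, measured 5.26, 3.28 and 3.09 in ORMES-22 and 9.21, 9.30 and 9.32 in ORMES-9 (difference 5.40, SE 0.42, adjusted p = 1.13e-05). DERA, the deoxyribose-phosphate aldolase, measured 7.61, 4.43 and 4.64 against 10.99, 11 and 10.87 (difference 5.39, SE 0.60, adjusted p = 0.000211). On the probe set chosen for each gene, replicate A lay between the remaining ORMES-22 arrays and ORMES-9, and the differences without it were 6.09 and 6.42. The 3 other probe sets of DCTD were also called higher, at 1.07, 3.72 and 2.78. Their differences hardly moved without A (1.04, 3.8 and 2.79), so they did not share the intermediate position of A. SH3YL1, a membrane lipid binding protein, had the same form (7.78, 4.79 and 4.43 against 9.18, 9.26 and 9.15; difference 3.53, 4.59 without A and 2.92 without C). TYMS, which turns dUMP into dTMP, fell by 1.13 (1.16 without A), from 10.39, 10.47 and 10.46 to 9.20, 9.43 and 9.30. DCTD, DERA and TYMS were the called members of 52 purine and pyrimidine genes, whose median difference was -0.05. Their shares were 3.85% higher and 1.92% lower, against 1.38% and 0.916% of all genes. Without A a second gene, PNP, was called lower (-1.03).

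Repair, lysosomal and metal-handling families each had 1 or 2 called genes. Their shares called higher were 1.64%, 4% and 7.14%, against 1.38% of all genes. Of the repair genes 1.64% were called lower, against 0.916% of all genes. MGMT, which strips alkyl groups from guanine, measured 4.48, 4.69 and 4.65 in ORMES-22 and 7.61, 7.25 and 7.29 in ORMES-9 (difference 2.78, SE 0.24, adjusted p = 3.31e-05; 2.71 without A). RAD51C, of homologous recombination, fell by 1.06 (1.07 without A), with a second probe set at -1.17 and its call lost without ORMES-9 C; these were the called members of 61 repair genes (2 higher and 1 lower without A). LIPA, the lysosomal acid lipase, measured 5.89, 4.42 and 4.6 against 8.22, 8.10 and 8.20 (difference 3.20, SE 0.34, adjusted p = 0.00014; 3.66 without A), and with the protease CTSZ (1.21; 1.14 without A) made the 2 called of 50 lysosomal genes, the same 2 without A. MT1E, a metallothionein, and SLC30A7, which moves zinc into the Golgi, rose by 1.72 and 1.28 (1.92 and 1.07 without A), 2 of 28 (3 without A). The quinone reductase NQO2 rose by 1.76 (1.84), the fatty acid binding protein FABP5 by 1.48 (1.77), the amino acid transporter SLC6A15 by 1.86 (2.15), and the potassium channel subunit KCNS3 by 1.76 (2.22), with the value without A in brackets. KYNU, of tryptophan breakdown, rose by 2.73 (2.70), to 7.59, 7.06 and 8.79, but its other probe set above background gave -0.21.

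Housekeeping families held few called genes. None of 39 cytosolic ribosomal protein genes, 32 proteasome genes, 48 histone genes, 34 glycolysis genes, 23 cholesterol genes, 23 aminoacyl tRNA synthetases, 63 replication and cell cycle genes or 38 p53 and apoptosis genes was called by limma with all arrays. The members with the largest difference in some of these were RPL31 (0.83), PSMB8 (0.42), H1-2 (0.58), PCK2 (0.82), CYP51A1 (0.86) and MKI67 (0.91). The choice of probe set matters for H1-2: of its 2 other probe sets, both dimmer, 1 was called higher (1.15, adjusted p = 0.0496) and the other gave 0.80. A second probe set of CYP51A1 gave -0.27. Without A 6 of these genes were called: PCK2 and MKI67 (1.01 each), RBL2 (1.05), CDKN2A (-1.02), INSIG2 (1.18) and MDM2 (-1.04). The respiratory chain list had 1 called gene of 69, the complex I assembly factor NDUFAF1 (difference 1.29, SE 0.09, adjusted p = 5.69e-06; 1.34 without A). Of 61 mitochondrial ribosomal proteins MRPL54 measured 9.54, 10.09 and 9.86 in ORMES-22 and 6.17, 6.13 and 6.44 in ORMES-9, a 12-fold fall (difference -3.58, SE 0.14, adjusted p = 3.88e-08; -3.73 without A), and MRPL44 stood at the 2-fold line (-1.02 with A, -1.0 without, where it was not called). The rPESC-2 mean of MRPL54, 7.95, lay between the lines.

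The C2H2 zinc finger genes, the largest family of transcription factors, leaned to ORMES-9. Of 343 measured 9 rose and 1 fell (16 and 2 without A), or 2.62% and 0.29%, against 1.38% and 0.916% of all genes. The median difference was 0.11, and in 86 (25.1%) all ORMES-9 arrays lay above all ORMES-22 arrays, against 13% of all genes. ZNF385B measured 6.36, 6.91 and 4.93 in ORMES-22 and 9.13, 9.25 and 8.06 in ORMES-9 (difference 2.75, SE 0.42, adjusted p = 0.00184; 2.89 without A), and a second probe set gave 2.57, also called. ZNF534, ZNF610, ZNF180, ZNF682 and ZNF584, which lie on chromosome 19 of the reference, rose by 1.93, 1.5, 1.25, 1.08 and 1.00; ZNF584 was not called without A (0.88). How many of the 343 lie on that chromosome was not counted, so these genes have no share to be read against. Of the genes above background on chromosome 19, 2.45% were called, against 2.29% of all genes measured, and their median difference was -0.002. The list also holds PRDM14 and the imprinted ZNF597. The 1 that fell was ZNF22, at 8.30, 9.05 and 8.96 against 4.27, 4.34 and 4.03 (difference -4.56, SE 0.77, adjusted p = 0.00381; -4.79 without A); its SE, shared over the groups, is large beside the ORMES arrays, and rPESC-2 spread over 4.37, 8.75 and 5.83. Its second probe set was also called, at -1.93. Among other nuclear proteins ZBTB33, the methylated DNA binding protein Kaiso, rose by 2.68, from 4.73, 4.31 and 4.30 to 7.15, 7.06 and 7.16 (2.82 without A). The chromatin remodeller ATRX fell by 1.38 (1.26 without A) but its other 3 probe sets, 1 of them at background, gave 0.13, -0.32 and -0.22; SMARCA2 fell by 1.15 and was under 2-fold without A (-0.90), although a second probe set of it was also called (-1.23), with a difference of -1.02 without A. They were the called members of 84 chromatin genes (1 higher and 2 lower without A). The share that fell was 2.38%, against 0.916% of all genes. MORF4L1, a subunit of histone acetyltransferase complexes, fell by 2.78 (2.87 without A), and its other 3 probe sets gave -1.10, -0.85 and -1.07.

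Some genes were at background in one line and high in the other. Of the genes that fell, 14 had an ORMES-9 mean under the 90th percentile of the controls (13 also called without A), and 6 of them were at least 8-fold lower: ZNF22, RWDD3, TMEFF2, ERI2, AKAP7 and the imprinted gene PLAGL1. Of the genes that rose, 13 had an ORMES-22 mean under it (12 also without A), and 2 were at least 8-fold higher, GCA and DCTD. For DCTD this holds for the chosen probe set only. Its other probe sets averaged 6.55, 5.06 and 5.38 in ORMES-22, above that level, so the gene was not at background there. A fold change against a level at background is limited by that background. RWDD3, an enhancer of SUMO conjugation, measured 8.16, 7.62 and 7.60 in ORMES-22 and 3.45, 3.87 and 3.72 in ORMES-9 (difference -4.11, SE 0.16, adjusted p = 3.88e-08; -3.93 without A). GCA, the calcium binding protein grancalcin, measured 3.91, 3.95 and 3.95 against 9.01, 8.91 and 8.99 (difference 5.03, SE 0.24, adjusted p = 1.66e-07; 5.02 without A). In neither gene did any array of one line come near the other. The rPESC-2 level split these genes: it was 8.99 for GCA, 9.76 for DCTD and 4.14 for AKAP7, as in ORMES-9, and 7.96 for RWDD3, 7.70 for ERI2 and 9.26 for TMEFF2, as in ORMES-22. DCBLD2, a membrane protein with a CUB domain, fell by 4.80 (4.79 without A) to 4.36, 4.16 and 4.30, whereas a second probe set, dim in both lines, gave 0.24.

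**Figure D4:**
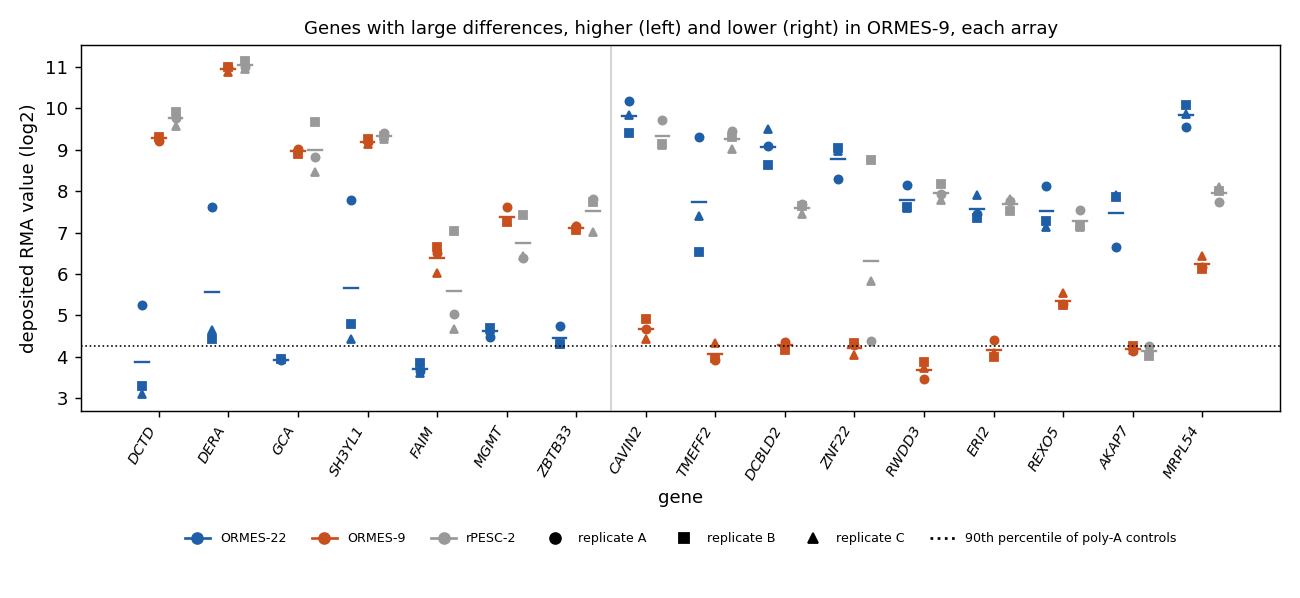
Deposited log2 value on each array for 7 genes that rose (left of the line) and 9 that fell (right), most of them near the background (dotted line) in one line; bars are group means, marker shapes replicates. ORMES-22 A (blue circle) lies between the lines for DCTD, DERA and SH3YL1 and above the other ORMES-22 arrays for TMEFF2.

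A few of the called genes were next to one another. In the order of the reference gene table, 8136 pairs of measured genes were neighbours and in 9 pairs both genes were called, 8 of them in the same direction (7 also without A). Of all genes 2.29% were called, and the number of pairs to be met without any link between neighbours was not worked out. CAVIN2 and TMEFF2 on chromosome 12 both fell (-5.14 and -3.68). ERI2 and REXO5, exonuclease genes on chromosome 20 whose spans overlap, fell by 3.42 and 2.17 on the log2 scale. TTC3 and PIGP on chromosome 3, whose spans overlap as well, rose by 1.51 and 3.05. Transcripts of overlapping genes may not be told apart by a probe set. The other pairs that rose were C1H1orf115 and MTARC2 (3.11 and 1.48), ATP8A2 and SHISA2 (1.27 and 1.14), ZFAND1 and CHMP4C (1.25 and 2.84), and RBM41 and NUP62CL (1.01 and 1.15). IRX2-DT and IRX1 fell together (-1.41 and -1.19), IRX1 only with A. Of the smaller differences, ZFAND1, RBM41, NUP62CL, SHISA2 and MOCOS each lost their call without at least 1 other single array. The value of C1H1orf115 rested on single arrays, at 13.2-fold without ORMES-22 A and 5.42-fold without B against 8.66-fold with all, and it was not called with only the 6 arrays (adjusted p = 0.0569). FHOD3 and MOCOS were called in opposite directions (-1.29 and 1.03). Imprinted genes were few among the called genes, but the share of the paternally expressed ones was high. Of 19 paternally expressed genes 5 fell (SNRPN, PLAGL1, PEG3, MAGEL2 and SGCE), and 4 without A. The share that fell was 26.3%, against 0.916% of all genes. In 9 of the 19 (47.4%) all ORMES-9 arrays lay below all ORMES-22 arrays, against 11.9% of all genes. Of 25 maternally expressed genes ZNF597 rose, with and without A, and 1 was called lower only without A. By chromosome, the median difference of genes above background ran from -0.03 on chromosome 14 to 0.08 on chromosome 17, where 8 genes rose and 1 fell; on X it was 0.01, with 6 rising and 6 falling.

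For most called genes 1 probe set carries the result. For the 298 called genes, 196 further probe sets lay above background; of these 166 had the same sign, 49 (in 40 genes) were called in the same direction and none in the opposite one. Among genes described above, other probe sets above background that gave under 2-fold included those of FABP5 (0.32), TRIM4 (-0.36), NUP62CL (0.38), TYMS (-0.01, beside 1 called at -1.36), SLC30A7 (0.63, beside 1 called at 1.34), WNT5A (-0.57, beside 1 called at -1.07) and MRPL44 (-0.91 to 0.40 over 4). For ID4 the other 3 gave -1.14, -0.17 and -0.72, none called. A further 360 called probe sets carry no named gene and are not described.

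Of the 6 arrays, ORMES-22 A moved the number of called genes most: 165 to 202 genes rose and 101 to 124 fell with any other single array left out, against 288 and 192 without A. It was the ORMES-22 array nearest to the ORMES-9 mean for 94 of the 179 genes that rose, against 50 for B and 35 for C, and for 52 of the 119 that fell, against 32 and 35. These counts cover only called genes, which were chosen with the values of A, B and C, and were not made over all genes. Over all 12993 genes A was at least 2-fold above the mean of B and C for 303 and at least 2-fold below it for 172. The largest genes called only without A were ANXA1, EDN1, FBN2, EIF5A and TNFRSF11B, all lower in ORMES-9. EDN1, the vasoconstrictor endothelin, measured 6.62, 9.39 and 9.79 in ORMES-22 and 5.02, 7.02 and 8.25 in ORMES-9, and ANXA1, a calcium-dependent membrane binding protein, 8.41, 9.93 and 11.06 against 6.20, 7.42 and 8.98. In both genes A was the lowest and C the highest array of each line, and the lines overlapped; the difference was -1.84 for EDN1 and -2.27 for ANXA1 with A, and -2.83 and -2.96 without. The largest called only with A were NODAL, KLHL5, TCERG1L, IRX1 and the imprinted gene SGCE, at 1.16, -0.87, 1.15, -0.90 and -0.85 without it.

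**Figure D5:**
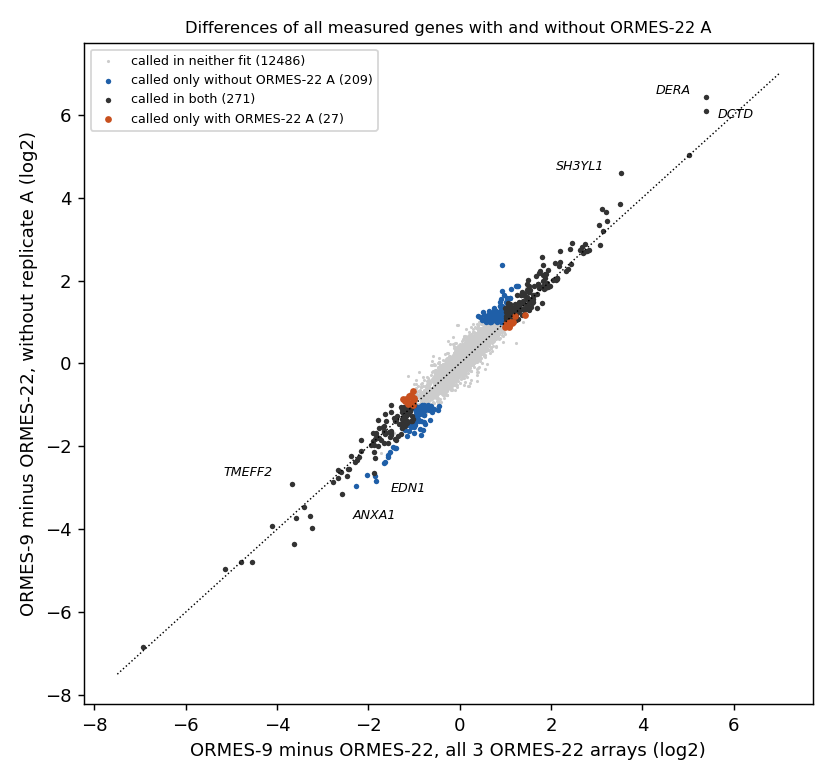
Difference between ORMES-9 and ORMES-22 (log2) for each of the 12993 genes with all 3 ORMES-22 arrays (horizontal) and without replicate A (vertical); the dotted line marks equal values. The 271 genes called in both (black) lie along the line, while DERA, DCTD and SH3YL1 move away from 0 without A and TMEFF2 towards it.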

How the data were processed

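Labelled RNA of 12 samples was hybridised to Affymetrix rhesus arrays, 3 for each of 4 groups. The authors deposited log2 values per probe set, made by RMA per the submitters' processing notes; RMA summarises and quantile-normalises probes, which compresses differences near background. Of 52865 features, 99 controls were left out. Group means were fitted to the 12 arrays with limma 3.58.1 (R 4.3.3; 8 residual degrees of freedom) and p-values adjusted over 52766 probe sets by Benjamini-Hochberg. Called means adjusted p under 0.05 and at least 2-fold. In simulated data with this spread the fit called 41.8% of probe sets changed by 1 on the log2 scale and 100% of those changed by 2 or 3. A change of 1 sits at the 2-fold threshold, so the first share is largely set by that threshold. The simulation gave every array the same spread for a probe set, so it does not carry the deviation of ORMES-22 A. The platform table gave 24956 probe sets 1 symbol, 361 several and 27449 none; 24616 probe sets had a symbol in the reference gene table (T2T-MMU8v2.0), used for names, chromosome and gene order only. Symbols starting with LOC (1691 probe sets) were not used. Each gene was read from the probe set brightest on average across all 12 arrays, and other probe sets of the named genes were read beside it. Symbols of array probe sets can be old.

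The 59 gene lists and the genes were chosen with earlier results of these data known. Named genes were the 30 largest rises and 30 largest falls that did not overlap between lines and were called also without ORMES-22 A, up to 4 called members of each list and direction (or the largest difference where none was called), defining markers, the 5 largest called only with or only without ORMES-22 A, and neighbouring called pairs; the text gives those it needs. Further genes are examples chosen after their values were seen. The labels state biological replicates, and the p-values measure the spread between these samples only. Between ORMES-9 and ORMES-22 samples of the same letter, deviations from the group means correlated by 0.189 (A), -0.060 (B) and 0.265 (C). ORMES-9 A with ORMES-22 C gave -0.242 and ORMES-9 C with ORMES-22 A -0.251, so part of the deviation followed the letters A and C. The labels do not state what the letters stand for, and the main fit did not treat them as pairs. Fits with a block on the letter are given below. Alternatives were other sets of arrays, array weights, normalisations, thresholds, gene summaries and each array left out. Promoter sequences were not used here. The number of arrays limits the precision. Tables were handled in Python 3.11.15 with pandas 2.3.3 and numpy 2.4.6.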

Additional observations from a re-analysis of the deposited data

How the results depend on the processing

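The number of called genes depended most on the fold threshold and on ORMES-22 A. With no minimum difference 2065 probe sets were called higher and 1093 lower (712 and 406 genes), and at 3-fold 157 and 131 (64 and 49 genes). Leaving out single arrays gave 441 to 760 probe sets higher and 276 to 524 lower, and 165 to 288 genes higher and 101 to 192 lower; the upper ends are without ORMES-22 A. The other alternatives tried kept these 4 counts within 1.5 times: with only the 6 arrays compared 128 genes were called higher and 87 lower, and with those 6 less ORMES-22 A 261 and 161. Of 135 called genes followed through the alternatives, 45 lost their call with only the 6 arrays, 23 with the mean of all probe sets of a gene, 11 without ORMES-22 A and 11 to 21 without another single array. None changed direction. The block on the replicate letter gave 181 genes higher and 118 lower over the 12 arrays and 121 and 85 over the 6 arrays compared; the pairing by letter rests on the letter alone, and not every sample correlated best with its own letter. At background, differences in dim genes such as CDH1 could not be resolved.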
